A study of Schmidtea mediterranea with 28 samples.

Results

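Transcripts shared by the X1 and X2 cell fractions of the planarian Schmidtea mediterranea, a flatworm that regenerates its whole body, were followed across 28 RNA-seq libraries. They were selected on their levels in wild type animals, where 1 X1, 1 X2 and 2 Xins libraries were sequenced. On the log2(cRPKM + 1) scale, where cRPKM is reads scaled by library total and by the mappable length of the transcript, X1 and X2 had to lie within 0.5 of each other and X1 had to reach 5 cRPKM. Of 22944 transcripts, 3842 met both conditions. They were ranked by the smaller of the X1 and X2 excess over the mean of the Xins libraries, the top 200 were taken, and 7 of these, whose identifiers the rule leaves out, were set aside, which left 193 members. The choice therefore used the wild type values, and these are given below as a description only.

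Planarians keep a large pool of adult pluripotent stem cells, the neoblasts, which are the dividing cells of the animal and give rise to all of its tissues. Cells are sorted by DNA content and cytoplasmic staining. X1 cells carry replicated DNA and are mostly cycling neoblasts, X2 cells have unreplicated DNA and a small cytoplasm and mix neoblasts with their early postmitotic progeny, and Xins cells, which are insensitive to X-rays, are mostly differentiated. Transcripts high in both X1 and X2 are thus present in the stem cell fraction and in the fraction that holds its immediate descendants.

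All animals were of the asexual Berlin-1 strain. Besides wild type, fractions came from animals injected with dsRNA against GFP (control RNAi), against bruli, a CELF family splicing regulator of neoblasts, or against the muscleblind genes (mbnl RNAi). Each RNAi group had 2 X1, 2 Xins and 1 X2 libraries, 15 in all, and 9 whole worm libraries covered control RNAi and RNAi of bruli, celf, esrp, mbnl, nova, ptbp, rbfox1 and rbfoxS, with 1 library each. The labels do not say that libraries of a group came from separate sorts or animals, so p-values measure only the spread between these libraries. Bulk fractions cannot tell fewer expressing cells from less RNA per cell.

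Total counts ranged from 12772545 to 34950244 per library. The neoblast marker PIWIL1 (comp659_c0_seq1) had 6463 and 7244 CPM in control RNAi X1, 1040 in X2, and 112 and 20.5 in Xins. CPM are read counts scaled to a common library total, here corrected with the trimmed mean of M values (TMM). The target bruli (comp2592_c0_seq1) went from 1064 and 1312 in control RNAi X1 to 132 and 176 after bruli RNAi, and mbnl-1 (comp2838_c0_seq1) from 95.6 and 81.9 in control RNAi Xins to 31.7 and 45.8 after mbnl RNAi. Libraries did not resemble each other equally: 96.2% of transcripts lay within 0.5 (log2 cRPKM + 1) between the second control RNAi X1 library and the wild type X1 library, against 74.6% for the first control RNAi X1 library. In Xins, the second control RNAi library had 89.1% within 0.5 of the first wild type library, and the first had 54.6%. With the second wild type Xins library the values were 55.9% and 54.7%, in the same order. Between control RNAi and wild type X2 it was 53.8%. Libraries outside the choice thus differed in how near they lay to those that made it. Several counts are also given with an X1 or Xins library left out. These stand without the share of all transcripts. X2 and whole worm results rest on 1 library per RNAi group and have no such check for that library.

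In wild type, the members were a median 2.08 above Xins in X1 and 1.97 above Xins in X2 on the log2(cRPKM + 1) scale. The first by rank was comp1610_c0_seq1, with 246 cRPKM in X1, 202 in X2, and 5.41 and 13.3 in Xins. The second, comp7227_c0_seq1, had 69.7 cRPKM in X1, 82.4 in X2, and 2.75 and 2.61 in Xins. In both, the X1 and X2 libraries stood side by side, far above both Xins libraries. The ranking thinned out gradually at its end: the last transcript inside, comp10711_c0_seq1, had a smaller excess of 1.6862 and the first outside, the splicing activator TRA2A (comp1760_c0_seq1), 1.6854.

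Most members were unannotated in the study's tables of RNA-binding proteins and orthologues. Of the 193, 174 carried neither a human name nor a KEGG orthology number, and no function is stated for them here. The 19 with a name were mostly proteins that bind RNA: 17 stood among 300 transcripts listed as RNA-binding proteins, 4 among 14 hnRNP transcripts, 3 among 77 core spliceosome transcripts, 2 among 53 DEAD and DEAH box helicases and 1 among 15 SR and TRA2 factors. None of the 193 stood in the lists of piRNA and germ granule, small-RNA silencing, snRNP or translation transcripts. Before 7 transcripts were set aside, the top 200 held 1 piRNA and germ granule transcript, 24 RNA-binding proteins, 5 hnRNP transcripts and 4 helicases. The member counts thus also follow the identifiers that the rule leaves out. Those tables cover mainly RNA-binding and splicing genes, so these counts follow their contents.

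The members made up 3.02% and 2.92% of all counts in the control RNAi X1 libraries, 2.13% in the X2 library, and 0.717% and 0.662% in the Xins libraries. The control RNAi X2 library thus lay between the fractions, nearer to X1. The 10 most counted members held 48.3% of the members' counts in the first control RNAi X1 library and 49.6% in the X2 library. The most abundant was KHDRBS3 (comp294_c0_seq1), with 2218 and 2292 cRPKM in control RNAi X1, and the median member had 20.0 and 32.3.

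**Figure D1:**
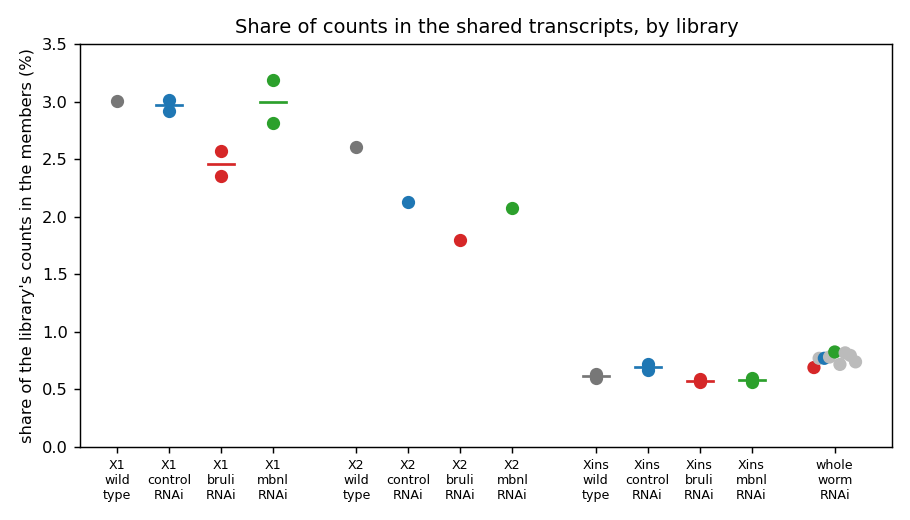
Share of each library's counts (vertical axis, percent) that fell in the 193 members, by fraction and RNAi group, with 1 point per library, a short line for the mean of 2, and whole worm points are blue for control, red for bruli, green for mbnl and grey for the others. X1 libraries lay between 2.35% and 3.18%, X2 libraries between 1.80% and 2.61%, Xins libraries between 0.562% and 0.717% and whole worms between 0.688% and 0.823%.

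The first question was whether the excess over Xins seen in wild type was present in libraries that had no part in the choice. Between X1 and Xins it was present throughout. In control RNAi, all 193 members had both X1 libraries above both Xins libraries, as 45.4% of all transcripts tested had. Of the 186 that passed a filter on low values, 181 were higher in X1 by edgeR's quasi-likelihood test at a Benjamini-Hochberg adjusted p under 0.05, against 29.9% of all 12091 transcripts tested, and 0 were lower. The median log2 difference was 2.52 for the members and -0.08 for all transcripts. With each X1 or Xins control RNAi library left out in turn, the count was 157 to 180.

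The same held in the RNAi groups. After bruli RNAi, 167 of 186 members were higher in X1 than in Xins (29.1% of all transcripts), with a median of 2.41. After mbnl RNAi the count was 183 (32.5% of all transcripts) and the median 2.78. In total 166 members were called in all 3 groups, which are separate libraries. Over all transcripts, the share called higher in all 3 groups can be at most 29.1%, the bruli RNAi share. The 7 members below the filter had 9 to 207 counts in the control RNAi X1 libraries, 4 to 16 in X2 and 1 to 35 in Xins, and were not tested.

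X2 was also above Xins, by less. A term for the replicate number in the model raised the number called in control RNAi, as given in the last section. In control RNAi, 102 of 186 members were higher in X2 than in Xins (11.4% of all transcripts), none was lower, 120 reached an unadjusted p under 0.05, and the median was 1.52. The counts were 109 after bruli RNAi (13.7% of all transcripts) and 121 after mbnl RNAi (19.1% of all transcripts), with medians of 1.58 and 1.89, and 93 members were called in all 3 groups. A single member was lower, comp17179_c0_seq1 after mbnl RNAi, where 21.1% of all transcripts were lower (log2 difference -1.77 ± 0.45 SE, adjusted p = 0.014 by edgeR's quasi-likelihood test). There is 1 X2 library per RNAi group, which the fit assumes to vary like the other groups. Over all transcripts, the share called higher in all 3 groups can be at most 11.4%, the control RNAi share. The leave-out counts that follow stand without the share of all transcripts and are not read as results about the members. The control RNAi count fell to 72 without the first Xins library and to 34 without the second, and the bruli RNAi count to 71 and 40.

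A comparison set of 1180 transcripts had at least 5 cRPKM in wild type X1 but X2 over 0.5 below X1. Their wild type X1 excess over Xins was at least 1.6862, the smaller excess of the last member. The set was not matched to the members in X1 level. It was chosen for low wild type X2 beside X1, so its X2 minus X1 difference is a description. In control RNAi, 560 of the 1085 tested (51.6%) were higher in X2 than in Xins with a median of 1.49, beside 54.8% and 1.52 for the members. Against Xins, the X2 library of control RNAi animals thus placed both sets at much the same height. The comparison set stood further above Xins in X1, with a median of 3.01.

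**Figure D2:**
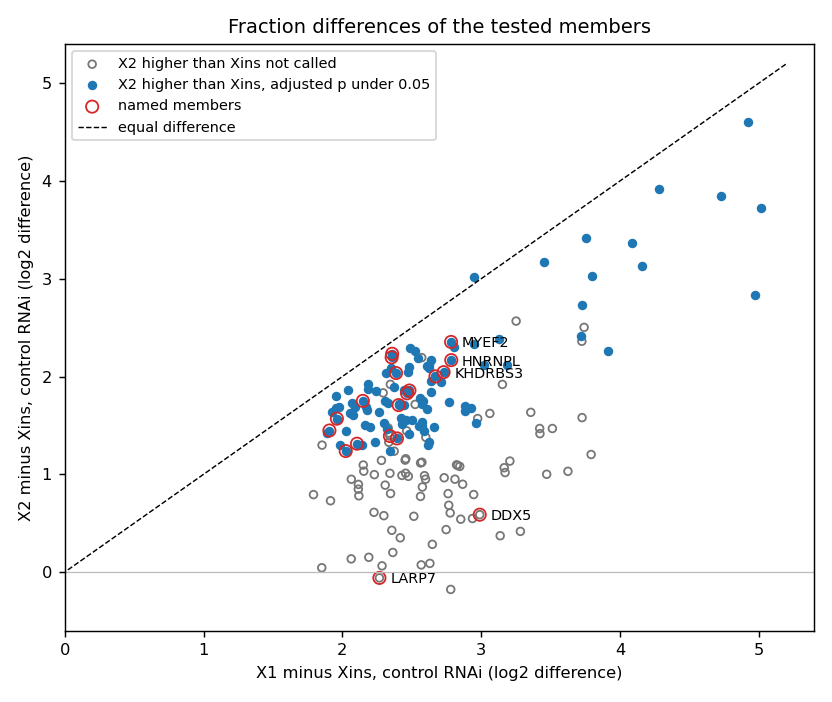
Log2 difference from Xins in control RNAi for the 186 tested members, X1 on the horizontal and X2 on the vertical axis. Filled points were called higher in X2 than in Xins (102), red rings mark the 19 named members, and points below the dashed line were less above Xins in X2 than in X1, as 185 of 186 were.

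The second question was whether the members were equal between X1 and X2 in control RNAi as they had been in wild type. They were lower in X2. The members had been selected for a high wild type X2 level near X1. What part of the difference in other X2 libraries follows from that choice was not tested. A term for the replicate number in the model raised the number called, as given in the last section. For 190 of 193 members the control RNAi X2 library lay below both X1 libraries, as for 48.8% of all transcripts. For 177 it lay between the X1 and the Xins libraries. At most 45.1% of all transcripts can have this order, the share with X2 above both Xins libraries. edgeR's quasi-likelihood test called 22 of 186 lower in X2 and 0 higher, where 6.86% of all transcripts were lower and 16.6% higher. The median difference was -1.02 for the members, -1.68 for the comparison set and -0.08 for all transcripts, and 49.7% of the comparison set was called lower. At an unadjusted p under 0.05, 64 members differed (34.4%), beside 36.4% of all transcripts.

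The other RNAi groups had the same direction. After bruli RNAi 16 members were lower in X2 than in X1 (7.38% of all transcripts) with a median of -0.82, and after mbnl RNAi 31 were lower (7.42%) with a median of -0.89. None was called higher in either. Only 7 members were called lower in all 3 groups. Over all transcripts, the share called lower in all 3 groups can be at most 6.86%, the control RNAi share. The bruli and mbnl RNAi comparisons were added after the control RNAi result had been seen. Counts with a library left out, given next, stand without the share of all transcripts and are not read as results about the members. The control RNAi count was 13 without the first X1 library and 5 without the second. The bruli RNAi count was 10 and 5 in the same order, and the mbnl RNAi count fell to 13 without the first X1 library.

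The scale of the values bears on how equal X1 and X2 appear. In wild type the members' median X2 minus X1 difference was -0.10 in cRPKM and -0.50 in TMM-scaled CPM, while that of all transcripts was 0.36 and 0.01. These wild type values chose the members and are a description. Between the first control RNAi libraries of X2 and X1, the members' difference was -0.71 in cRPKM and -0.91 in TMM-scaled counts, which is 0.85 and 0.84 below all transcripts. All 3 RNAi X2 libraries carry the number 1, as does this X1 library, and the cRPKM of number 1 RNAi fraction libraries imply totals 1.16 to 1.30 times their counts, against 1.00 for number 2. The X2 comparisons thus mix fraction with any difference between the numbers. Against the second control RNAi X1 library the members' difference was -1.12 in cRPKM and -1.05 in TMM-scaled counts.

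On the scale of the rule, 65 of 193 members stayed within 0.5 between these control RNAi libraries, 128 were lower in X2 and 0 higher. After bruli RNAi 87 stayed within 0.5 and after mbnl RNAi also 87, with 104 and 103 lower. Across all transcripts 40.3% lay within 0.5 in control RNAi. On the same scale 149 members were over 0.5 lower in control RNAi X2 than in wild type X2 and 0 were higher, with a median of -1.01 against -0.38 for all transcripts. The members had been selected for high values in that wild type X2 library, so this is a description from which nothing is read. In cRPKM, all 4 neoblast marker transcripts were lower in control RNAi X2 than in wild type X2. PIWIL1 had 314 against 583 and bruli 127 against 207. The DDX4 transcripts (comp1985_c0_seq1 and comp2082_c0_seq1) had 85.2 against 112 and 109 against 131. In TMM-scaled CPM only PIWIL1 (1040 against 1390) and bruli (328 against 385) were lower. There the DDX4 transcripts were higher, at 324 against 307 and 269 against 232. Of 12 marker transcripts of neural, muscle and epithelial cells, 10 were higher in control RNAi X2 than in both X1 libraries and 1 was lower, in TMM-scaled CPM. The muscle marker RBPMS (comp4296_c0_seq1) had 24.0 in X2 and 1.0 and 0.6 in X1, while an ELAVL4 transcript (comp10994_c0_seq1) had 20.9 in X2 and 34.8 and 48.8 in X1. Their part in the members' difference was not tested.

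**Figure D3:**
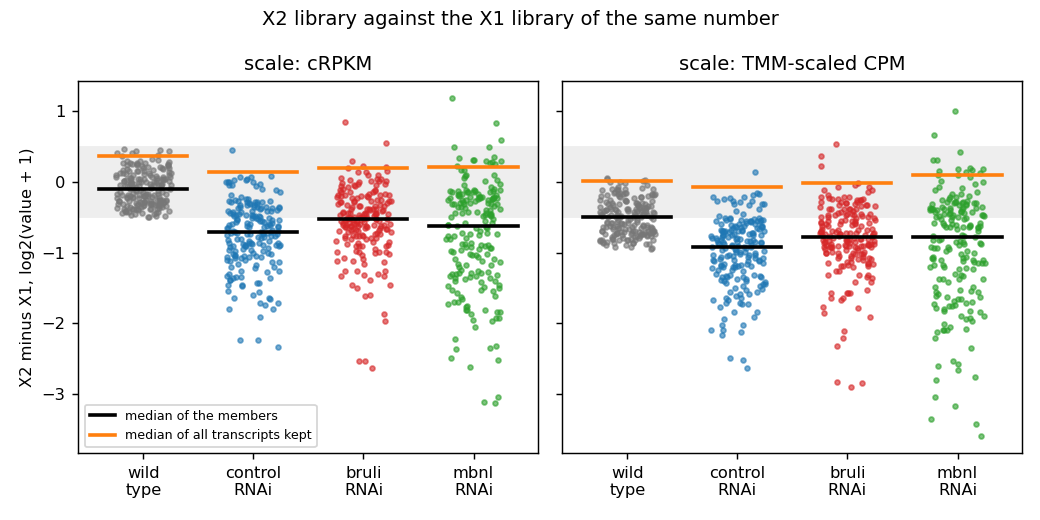
X2 minus X1 of each of the 193 members (points) between the libraries of the same number, in log2(value + 1), on the cRPKM scale (left) and in TMM-scaled CPM (right). Black lines are member medians, orange lines the medians of all transcripts kept, and the grey band is the 0.5 limit of the rule, which the wild type points meet on the cRPKM scale by construction. Member medians in cRPKM were -0.10 in wild type, -0.71 in control RNAi, -0.52 after bruli RNAi and -0.63 after mbnl RNAi.

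The difference between X2 and X1 varied with abundance. Split by mean cRPKM over all libraries, the median X2 minus X1 difference in control RNAi was -1.71 among the 57 tested members with means of 1.95 to 6.05 cRPKM, -1.05 among 64 at 6.11 to 24.4 and -0.62 among 65 from 24.5 upward. The X1 minus Xins medians of these groups were 2.62, 2.53 and 2.41. X2 thus lay furthest below X1 among the least abundant members, for which 1 library also gives the fewest counts. The named members, which lay mostly among the abundant ones, had a median of -0.64, and the unnamed -1.07. This is a description across transcripts of the same libraries.

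Among the unnamed members, comp20961_c0_seq1 had the largest called excess of X2 over Xins. It had 13.0 and 16.6 CPM in control RNAi X1, 11.1 in X2, and 0.6 and 0.2 in Xins, the Xins values resting on 17 and 10 counts. The log2 difference was 4.61 ± 0.77 (SE, adjusted p = 0.0091 by edgeR's quasi-likelihood test) for X2 and 4.92 ± 0.73 for X1, and X2 lay close below both X1 libraries. At the other end, comp15274_c0_seq1 had 35.7 and 54.6 CPM in X1, 7.6 in X2, and 2.6 and 4.3 in Xins. Its X2 library stood well below X1, by a log2 difference of -2.47 ± 0.55 (adjusted p = 0.012 by edgeR's quasi-likelihood test), and just above Xins.

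The 3 transcripts first by rank were called higher than Xins in both fractions. comp1610_c0_seq1 had 114 and 81.5 CPM in control RNAi X1, 49.2 in X2, and 5.5 and 0.8 in Xins, and was 4.73 ± 0.95 above Xins in X1 and 3.85 ± 0.99 in X2 (log2 ± SE). Its Xins libraries differed widely from each other. comp7227_c0_seq1 had 221 and 155 CPM in control RNAi X1, 71.4 in X2, and 5.8 and 4.0 in Xins. It was 5.01 ± 0.43 above Xins in X1 and 3.72 ± 0.44 in X2 (log2 ± SE). The third, comp2875_c0_seq1, had 331 and 312 in X1, 181 in X2, and 25.4 and 6.6 in Xins, and was 4.09 ± 0.61 above Xins in X1 and 3.37 ± 0.65 in X2. In comp7227_c0_seq1 and comp2875_c0_seq1, X2 lay below X1, by -1.29 ± 0.47 and -0.72 ± 0.68 (log2 ± SE), which the test did not call, at adjusted p-values of 0.076 and 0.47 by edgeR's quasi-likelihood test.

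The hnRNP proteins, which coat nascent pre-mRNA and steer splice site choice, gave 4 members. MYEF2 (comp2707_c0_seq1), a relative of HNRNPM, had 691 and 601 CPM in control RNAi X1, 446 in X2, and 93.0 and 65.9 in Xins. It was 2.78 ± 0.27 above Xins in X1 and 2.35 ± 0.30 in X2. HNRNPL (comp1327_c0_seq1), which binds CA-rich elements, had 1674 and 1647 in X1, 1007 in X2, and 224 and 185 in Xins. Both transcripts had X2 nearer to X1 than to Xins, below both X1 libraries.

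HNRNPK (comp2111_c0_seq1), a KH domain protein of poly(C) elements, had 603 and 489 in X1, 464 in X2, and 117 and 63.6 in Xins. HNRNPF (comp1957_c0_seq1), which binds G tracts, had 659 and 662 in X1, 481 in X2, and 123 and 91.0 in Xins. X2 minus X1 was -0.13 ± 0.55 for HNRNPK and -0.35 ± 0.39 for HNRNPF, neither called. All 4 hnRNP members were called higher than Xins in both fractions. Of the 14 hnRNP transcripts in the study's list, all tested and the members included, 13 were higher in X1 and 10 in X2 than in Xins in control RNAi. None of the 14 was called between X2 and X1, and their median difference there was -0.28.

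The KH domain proteins of the STAR and KSRP families gave 3 members. KHDRBS3, known in mammals as a regulator of neuronal splicing, had 5596 and 4680 CPM in control RNAi X1, 2967 in X2, and 731 and 580 in Xins. KHDRBS2 (comp1578_c0_seq1), its close relative, had 435 and 398 in X1, 251 in X2, and 63.4 and 62.7 in Xins. Both KHDRBS transcripts were highest in X1 and intermediate in X2. KHSRP (comp812_c0_seq1), which in mammals acts in splicing and in decay of AU-rich mRNAs, had 2597 and 2289 in X1, 1724 in X2, and 512 and 422 in Xins. X2 exceeded Xins by 2.04 ± 0.38, 1.86 ± 0.31 and 1.75 ± 0.44 in the same order, all called.

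Spliceosome and SR-type factors gave 4 members. TRA2B (comp3781_c0_seq1), a splicing activator that binds GAA-rich exons in mammals, had 251 and 225 CPM in control RNAi X1, 136 in X2, and 41.8 and 34.3 in Xins. K12821 (comp1909_c1_seq1), the KEGG number of PRPF40, a protein that bridges the splice sites early in spliceosome assembly, had 418 and 279 in X1, 167 in X2, and 67.4 and 48.8 in Xins. RNPC3 (comp13366_c0_seq1), a protein of the minor spliceosome, had 25.1 and 25.9 in X1, 13.8 in X2, and 5.3 in each Xins library. K12879 (comp3159_c0_seq1), the number of THOC2, part of the THO complex of mRNA export, had 609 and 529 in X1, 305 in X2, and 121 and 103 in Xins.

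In each of these 4 the X2 library lay between X1 and Xins. X2 was higher than Xins by 1.71 ± 0.30 for TRA2B, 1.31 ± 0.29 for K12879 and 1.24 ± 0.34 for RNPC3, all called, and by 1.39 ± 0.47 for K12821, which was not (adjusted p = 0.058 by edgeR's quasi-likelihood test). Of 77 core spliceosome transcripts, 73 were higher in X1 and 39 in X2 than in Xins, and 14 were lower in X2 than in X1. Of 15 SR and TRA2 factors, 13 were higher than Xins in X1 and 13 in X2, and none was called between X2 and X1.

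The 2 helicases differed from each other. DDX5 (comp10179_c0_seq1), a DEAD box helicase that remodels RNA in splicing and transcription, had 96.5 and 88.3 CPM in control RNAi X1 but 16.2 in X2, beside 8.9 and 10.8 in Xins. Its X2 library stood close to Xins, although wild type X2 had 78.9 cRPKM beside 98.1 in wild type X1. It was the named member called lower in X2 than in X1, by -2.40 ± 0.40 (adjusted p = 0.0031 by edgeR's quasi-likelihood test), and it was called lower under every alternative run.

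DDX5 was also -2.72 ± 0.41 in X2 against X1 after bruli RNAi, called at an adjusted p of 0.0025 by edgeR's quasi-likelihood test. After mbnl RNAi the difference was -0.82 ± 0.36, not called. Its X2 levels were 54.8 CPM in wild type, 11.1 after bruli RNAi and 56.6 after mbnl RNAi. The 4 X2 libraries thus fell into a high and a low pair, while the 7 X1 libraries ranged from 71.2 to 119. DDX28 (comp5591_c0_seq1), a helicase of mitochondrial ribosome assembly in mammals, had 89.7 and 124 in control RNAi X1, 48.8 in X2, and 15.4 and 19.0 in Xins, a graded order. Of 50 helicase transcripts tested, 36 were higher in X1 and 16 in X2 than in Xins.

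The remaining named members had varied roles. TIA1 (comp2139_c0_seq1), a U-rich binding protein of splicing and stress granules, had 510 and 345 CPM in control RNAi X1, 249 in X2, and 66.5 and 46.9 in Xins. CCAR1 (comp1608_c0_seq1) and NCOA5 (comp2395_c0_seq1), transcriptional coactivators in mammals, were 1.83 ± 0.33 and 1.57 ± 0.45 higher in X2 than in Xins. RBM14 (comp1285_c0_seq1), a paraspeckle protein in mammals, was 2.20 ± 0.32 higher, and K02180 (comp8780_c0_seq1), the number of the spindle checkpoint protein BUB3, 1.45 ± 0.34 higher. All 5 were called in X2 and in X1 against Xins.

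LARP7 (comp23601_c0_seq1), which in mammals binds the 7SK RNA, was the least counted named member. It had 69 and 241 counts in control RNAi X1, 32 in X2, and 24 and 71 in Xins. X1 was 2.27 ± 0.86 above Xins (adjusted p = 0.040 by edgeR's quasi-likelihood test), a call that was lost without the second X1 library or without either Xins library. X2 differed from Xins by -0.06 ± 1.04, and the sign changed between alternatives. In all, 19 of the 19 named members were called higher in X1 than in Xins and 16 in X2. For 11 named members the call of X2 over Xins was lost in some alternative run. For 11, a call between X2 and X1 that the main fit lacked was gained in some alternative run. The calls of named members in X2 thus depended on the processing.

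**Figure D4:**
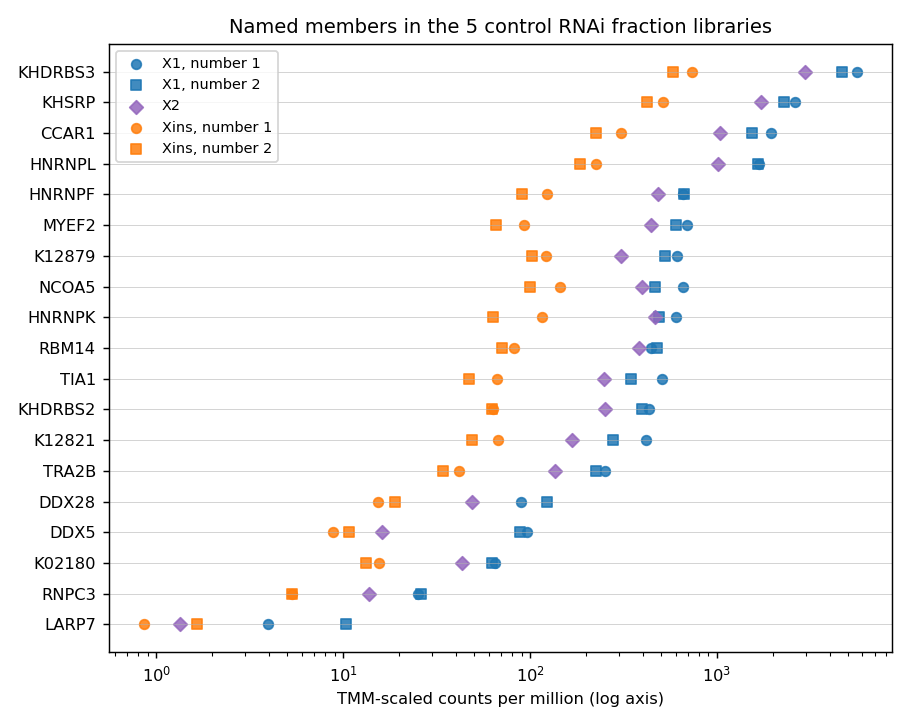
The 19 named members in the 5 control RNAi fraction libraries, in TMM-scaled CPM on a log axis, ordered by their mean in X1, with 1 symbol per library. The X2 library of DDX5 (16.2) lies beside Xins (8.9 and 10.8), while that of HNRNPK (464) lies beside X1 (603 and 489).

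The third question was what bruli and mbnl RNAi did to the members within a fraction. The bruli, mbnl and control groups share the control libraries, so their comparisons are not independent of each other. In X1, bruli RNAi gave no called member. None of the 12494 transcripts tested (0% in either direction) passed an adjusted p of 0.05 by edgeR's quasi-likelihood test. The knocked-down bruli was itself not called, though it went from 1064 and 1312 CPM to 132 and 176. The 0 calls therefore do not show that the members stayed unchanged. At an unadjusted p under 0.05 there were 20 members (10.7%) and 890 transcripts (7.12%). The DESeq2 Wald test called 4 members, all lower, beside 0.376% of all transcripts lower and 0.496% higher. Of 187 members tested, 156 had a negative value, with a median of -0.33 against 0.01 for all transcripts and -0.25 for the comparison set. For 70 of 193, both bruli RNAi libraries lay below both controls, and for 10 above, beside 16.9% and 20.8% of all transcripts. With a term for the replicate number in the model, a few members were called lower, as given in the last section.

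The members' share of X1 counts was 2.57% and 2.35% after bruli RNAi, below both control values. PIWIL1 was at 2332 and 2527 CPM in these libraries, beside 6463 and 7244 in control RNAi, and whether it and the members moved for one reason was not tested. The member with the smallest p was comp19851_c0_seq1, chosen after its values were seen, with 51.2 ± 0.22 CPM in control RNAi X1 and 8.8 ± 0.47 after bruli RNAi (mean ± SD, n = 2). Its log2 difference was -2.53 ± 0.37 (adjusted p = 0.072 by edgeR's quasi-likelihood test). Its libraries did not overlap.

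Among the named members, KHDRBS2 had 435 and 398 CPM in control RNAi X1 and 275 and 209 after bruli RNAi. MYEF2 had 691 and 601, and 462 and 391 after bruli RNAi. In both, each bruli RNAi library lay below each control, with log2 differences of -0.78 ± 0.27 and -0.59 ± 0.26 and adjusted p-values of 0.52 and 0.69 by edgeR's quasi-likelihood test. The other named members lay between -0.58 for CCAR1 and 0.05 for LARP7, none called.

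mbnl RNAi in X1 called 0 members and 0% of transcripts by edgeR's quasi-likelihood test, with 0 members at an unadjusted p under 0.05 and 0 by DESeq2, and the member median was -0.03. In Xins, where the members are low, bruli and mbnl RNAi also called 0 members (0% of transcripts) by edgeR and by DESeq2, with 2 and 5 members at an unadjusted p under 0.05. The medians there were -0.26 and -0.23, and 167 and 144 of 187 members had a negative value. All transcripts had medians of -0.02 and 0.02 in the same order. The comparison set, at -0.21 and -0.20, lay near the members. The knocked-down mbnl-1 was not called in Xins by edgeR either, so the 0 calls do not show that the members stayed unchanged. PIWIL1 in Xins had 112 and 20.5 CPM in control RNAi, 7.7 and 4.6 after bruli RNAi, and 12.6 and 11.5 after mbnl RNAi, and its part was not tested. The test of whether the RNAi difference itself differed between X1 and Xins called 0 members for either RNAi by edgeR, with 2 and 0 at an unadjusted p under 0.05, and 1 lower for bruli by DESeq2 (0.032% of all transcripts).

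In X2, with 1 library per RNAi group, the log2 ratio of cRPKM + 1 is a value with no test. After bruli RNAi 165 members passed the filter on low values, of which 3 were over 0.7 higher (4.05% of all transcripts) and 7 over 0.7 lower (5.2%). The median was -0.17, against 0.02 for all transcripts. Unnamed comp3607_c0_seq1 went from 55.3 to 24.2 cRPKM and comp5128_c0_seq1 from 65.9 to 127. In counts these were 739 to 275 and 1205 to 1969.

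After mbnl RNAi, 163 members passed, of which 10 were over 0.7 higher (2.74% of all transcripts) and 20 over 0.7 lower (13.6%). On TMM-scaled CPM the split turned to 21 higher and 11 lower, beside 7.69% and 7.74% of all transcripts. The all-transcript median was -0.19 in cRPKM and 0.06 on this scale, and the member median -0.08 and 0.19. DDX5 went from 16.8 to 48.1 cRPKM, the only named member past 0.7. comp3816_c0_seq1 went from 30.1 to 88.3 cRPKM and comp15715_c0_seq1 from 5.25 to 0.42. Members thus differed in both directions in this 1 library, and no replicate shows how much of that is spread between libraries.

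**Figure D5:**
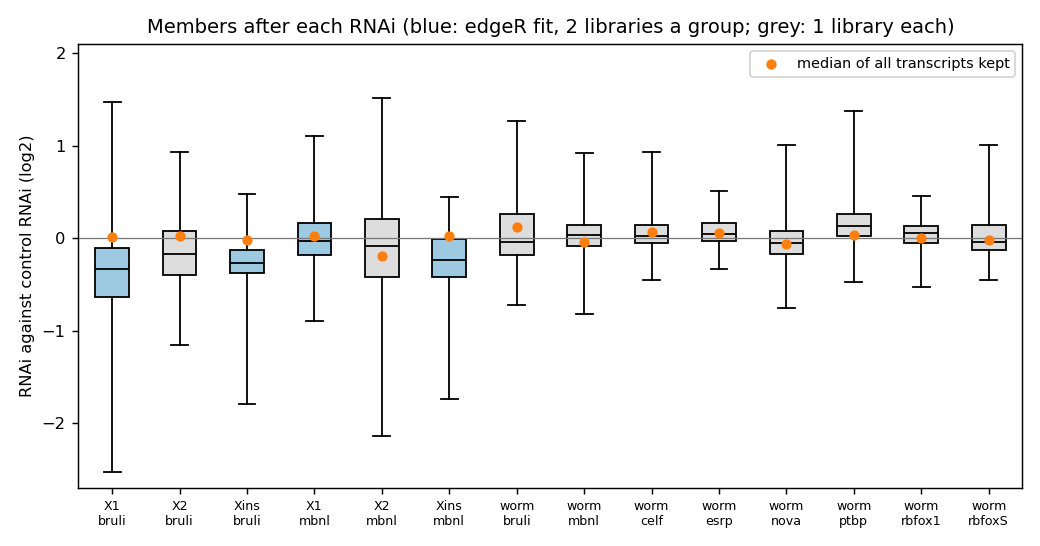
Log2 difference between each RNAi and control RNAi over the members that passed the filter in each comparison. Boxes span the lower to the upper quartile of the members with the median as a line, whiskers reach the lowest and highest member, blue marks edgeR fits with 2 libraries a group and grey single libraries, and orange points are medians of all transcripts kept. The bruli X1 box has its median at -0.33 beside 0.01 for all transcripts, and the whole worm medians lie between -0.05 and 0.13.

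In whole worms the members were low, at 0.688% to 0.823% of counts, and between 124 and 134 passed the filter, so these counts leave out the least abundant members. After bruli RNAi 13 were over 0.7 higher (5.75% of all transcripts) and 1 was lower (0.581%), with a median of -0.04 against 0.12 for all transcripts. The largest, comp12491_c0_seq1, went from 3.44 to 9.65 cRPKM on 27 and 75 counts. All 13 were unnamed, and most were weakly counted. Of the 13, 5 had control values that alone lie under the filter, so that they passed through the bruli RNAi worm in which they are high, and 8 did not. The count is therefore no support for a rise of the members. On TMM-scaled CPM, 6 were higher and 1 lower, beside 3.60% and 0.801% of all transcripts.

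Of the 19 named members, 14 lay below the control worm after bruli RNAi in TMM-scaled CPM, and 15 after rbfoxS RNAi. The count was 13 after celf, 12 after esrp, 11 after nova, 7 after ptbp, 6 after rbfox1 and 2 after mbnl RNAi. All of these share 1 control worm. The bruli RNAi worm was the lowest of the 9 worms for 14 of 19, or for 10 in cRPKM. These counts stand without the share of all transcripts, so nothing about the members is read from them. KHDRBS3 had 750 CPM there against 867 to 1061 in the other 8 worms, and HNRNPL 259 against 305 to 359. PIWIL1 had 168 in the bruli RNAi worm and 416 to 533 in the others. Whether they are linked was not tested.

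The other whole worm RNAi groups moved few members. Past 0.7 there were 3 higher and 0 lower after celf RNAi (2.76% and 0.391% of all transcripts), 1 higher and 2 lower after mbnl RNAi (0.354% and 1.25%), 2 higher and 1 lower after nova RNAi (1.73% and 1.5%), and 3 higher and 0 lower after ptbp (0.717% and 0.526%) and after rbfoxS RNAi (2.41% and 0.649%). There were 0 after esrp RNAi (0.675% of all transcripts higher and 0.508% lower) and 0 after rbfox1 RNAi (0.248% and 0.553%). comp12491_c0_seq1 was also past 0.7 after celf, nova and rbfoxS RNAi, and all 8 ratios share 1 control library, in which it had 27 counts. Medians over the members ranged from -0.05 after nova RNAi to 0.13 after ptbp RNAi.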

How the data were processed

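RNA-seq libraries were made by the study with TruSeq RNA v2, a kit that does not mark strand, so antisense or overlapping transcripts cannot be told apart. The deposited files hold 2 values for each of 22944 transcripts of a de novo Dresden transcriptome. The first is cRPKM (a mappability-corrected RPKM), made by the authors with vast-tools, and the second is the read count deposited beside it. The submitters' processing notes name Bowtie, with a version not given in the sources used here. Blank count cells (48924 in all) were read as 0.

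Counts were tested with edgeR 4.0.16 (quasi-likelihood, TMM scaling, R 4.3.3) over transcripts with a mean log2(cRPKM + 1) above 1.5. One model over the 15 RNAi fraction libraries gave the fraction comparisons, and another over X1 and Xins gave the RNAi comparisons. Calls used a Benjamini-Hochberg adjusted p under 0.05 over all transcripts tested. X2 and whole worm RNAi effects, with 1 library each, were log2 ratios of cRPKM + 1 read against 0.7. Alternatives used limma 3.58.1, DESeq2 1.42.0, no filter, other scalings and pseudocounts, left-out libraries and a replicate term. The scripts were tested on simulated data. Named are all members with a name or KEGG number, up to 2 unnamed members in each direction per comparison, the 3 first by rank and the 3 most abundant. The members and lists were chosen with earlier results of these data known. Totals of 12772545 to 34950244 counts per library limit precision for the least abundant members.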

Additional observations from a re-analysis of the deposited data

How the results depend on the processing

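Under every alternative run, calls against Xins were higher (apart from up to 2 lower in X2 after mbnl RNAi) and calls of X2 against X1 were lower, while their number varied. X2 above Xins in control RNAi (102 members) gave 66 with limma on log2(cRPKM + 1) and 34 to 72 with an Xins library left out, and after bruli RNAi (109) 40 to 71. X2 below X1 in control RNAi (22) gave 59 with DESeq2, 10 with limma on log2(cRPKM + 1), 42 after quantile normalization, 9 with no filter, 7 with only the 5 control RNAi libraries and 5 to 13 with an X1 library left out. After bruli RNAi (16) it gave 43 with DESeq2, 26 after quantile normalization, 10 with no filter and 5 to 10 with a library left out, and after mbnl RNAi (31) 58 with DESeq2, 18 with no filter and 13 to 26 with a library left out. bruli RNAi in X1 (0) gave 4 with DESeq2, and its interaction 1. In whole worms past 0.7, bruli RNAi (14) gave 7 on TMM-scaled counts, and celf RNAi (3) gave 1. With a pseudocount of 0.1 the counts were 5 for celf, 1 for esrp, 6 for mbnl, 1 for rbfox1 and 5 for rbfoxS RNAi. The cause was not tested. With DESeq2, the share of all transcripts lower in X2 than in X1 was 11.9% in control RNAi. It was 12.8% after bruli RNAi and 12.3% after mbnl RNAi. The other alternatives are given without the share of all transcripts, so their counts are not read as results about the members.

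Replicate numbers correlated between groups at 0.05 to 0.73. Only 1 pair of groups, X1 control with Xins mbnl, stayed under 0.1, and the next lowest value was 0.38. The labels state no shared batch for a number, and the main fits did not pair libraries by it. All RNAi X2 libraries carry the number 1, so without the block their comparisons mix fraction with any difference between numbers. The block counts below stand without the share of all transcripts, so nothing about the members is read from them. With the replicate block, 156 members were higher in X2 than in Xins in control RNAi, X2 fell below X1 for 90 in control RNAi, 59 after bruli RNAi and 74 after mbnl RNAi, and bruli RNAi in X1 gave 5 lower. For LARP7, X2 minus Xins was 0.72 with the replicate block, 0.39 after quantile normalization, 0.15 with no filter, and -0.47 to 0.47 with an Xins library left out. X2 minus X1 became 0.038 for RBM14 after quantile normalization, and 0.11 for HNRNPK there and 0.014 with no filter.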
